A study of Mus musculus with 10 samples.

Results

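Chemokines and their receptors were examined in mouse liver RNA. The set holds every array gene whose name in the scanner files begins Ccl, Cxcl or Xcl followed by a digit, has the form Ccr or Cxcr with a digit, or is Cx3cl1. These rules took 48 genes, 35 ligands and 13 receptors, of 27670 gene or transcript names on the array, measured by 62 of its 41174 probes that are not controls. Chemokine system genes whose name in the files does not match these rules stayed outside the set, and values of several are given near the end. Livers of 1-year-old C57BL/6 mice gave total RNA that was copied with the dye Cy3 and read on Agilent mouse arrays, 1 sample to an array. Of the 10 arrays, 5 carried RNA of wild-type (WT) mice and 5 RNA of knockout (KO) mice lacking TAK1, the orphan nuclear receptor also called TR4 and encoded by Nr2c2. The labels give neither the part of the gene deleted, nor the sex of the mice, nor whether every array is its own animal. The p-values therefore cover the variation among these 10 samples only, which may be technical. Slide 1 held WT1 to WT4, slide 2 held WT5 with KO1, KO2 and KO3, slide 3 held KO5 and slide 4 held KO4.

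Chemokines are small secreted proteins that draw leukocytes along a gradient, and their receptors couple to inhibitory G proteins on the migrating cell. CC and CXC ligands are told apart by the spacing of their first cysteines, and several ligands share a receptor while most receptors take several ligands. In liver, Kupffer cells, sinusoidal endothelium, stellate cells and hepatocytes are known sources of these ligands, and the receptors sit mostly on recruited leukocytes. RNA of whole liver mixes all of these cells, so fewer cells of a type and less RNA per cell cannot be told apart in any value below.

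The targeted gene was checked first. A probe at the Nr2c2 locus that the files name after a cDNA, with the Nr2c2 protein as its product, was well above background on 5 of 5 wild-type and 0 of 5 knockout arrays, at least 5.41-fold higher in wild type (limma, adjusted p = 0.000213). That bound sets the wild-type mean against the dimmest signal called above background on each knockout array. The probes named Nr2c2 itself were above background on all 10 arrays, with knockout minus wild-type log2 differences of 0.36 and 0.44. Whether they lie in the deleted part is not known, so they check nothing. Across the 10 arrays 51.0% to 62.4% of all probes were well above background, and the 75th percentile of the signal ran from 950.3 to 1344. The hepatocyte marker Alb had log2 values of 8.58 or more on every array.

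Sequences of the molecules behind the main results are shown first. The first line is the first 30 of 60 bases of the Cxcl7 probe, which gave the one called difference among the members and lies at chr5:90741218-90741277. The next lines are the first 30 bases of a pair of Ccr2 probes, the first detected on all 10 arrays and the second on none, at chr9:123827135-123827194 and chr9:123827706-123827765 in the mm7 build of the files.
Cxcl7 probe: ctggtcatgaccatgtttttccaatttctt
Ccr2 probe detected: gaagcagggacagaattcttgctttgaaaa
Ccr2 probe not detected: aagtaaatatgcaaaggagagaagttagag
Whether these probes fall in an exon, an intron or a UTR was not determined.

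Promoters are shown for Cxcl7, whose current symbol is Ppbp, and for Ccl6, the members with the smallest p in each direction. Each run is the 250 bases before the RefSeq gene start in GRCm38.p6, on the gene's strand, with capitals marking AGGTCA or its reverse complement TGACCT, the half-site that nuclear receptors of the TR4 kind bind. The Ppbp run is chr5:90768268-90768517 on the plus strand and the Ccl6 run chr11:83593088-83593337 on the minus strand.
Ppbp promoter: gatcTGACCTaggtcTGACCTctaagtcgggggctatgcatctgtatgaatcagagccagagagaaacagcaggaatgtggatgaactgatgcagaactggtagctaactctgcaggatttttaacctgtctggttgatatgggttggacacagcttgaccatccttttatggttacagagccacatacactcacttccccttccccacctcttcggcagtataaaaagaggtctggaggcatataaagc
Ccl6 promoter: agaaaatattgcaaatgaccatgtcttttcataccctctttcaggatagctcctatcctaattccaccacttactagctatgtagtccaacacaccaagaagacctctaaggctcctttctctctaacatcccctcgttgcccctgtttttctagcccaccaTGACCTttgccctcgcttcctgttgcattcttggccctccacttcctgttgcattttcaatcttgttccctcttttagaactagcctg
The copies of the half-site began 246 and 235 bases before the Ppbp start and 88 bases before the Ccl6 start. On either strand AGGTCA stood in 12 of the 39 promoters that RefSeq gave for 35 member genes, counting 250 bases before and 50 after the start, and in 16.3% of all 32851 promoters in the table. A direct repeat of AGGTCA with 1 base between the copies, which holds that half-site, was in 0 of the 39 and in 0.0396% of all promoters. A match describes these letters only, and 13 members had no entry in the table.

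Detection came before any comparison. A gene counted as detected on an array when any of its probes carried Agilent's flag for signal well above background. By that rule 26 of the 48 genes were detected on all 10 arrays, 21 ligands and 5 receptors, 14 on some arrays and 8 on none. Over probes, 51.6% of the 62 member probes were detected on every array against 49.1% of all probes on the array, and 21.0% against 30.0% on no array. Between 26 and 34 member genes were detected per array, 34, 29, 31, 29 and 30 on WT1 to WT5 and 29, 34, 26, 30 and 33 on KO1 to KO5, so the groups overlapped.

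The ligands detected throughout included the monocyte attractants Ccl2 and Ccl7, the macrophage inflammatory protein Ccl4, the T cell product Ccl5, the interferon-induced CXCR3 ligands Cxcl9, Cxcl10 and Cxcl11, the CCR7 ligands Ccl19 and Ccl21c, the B cell attractant Cxcl13, and Cxcl12, the ligand of CXCR4. Receptors detected throughout included Ccr2 of inflammatory monocytes, Ccr6, Cxcr3 and Cxcr6. The 8 genes not well above background on any array were the CCR8 ligand Ccl1, the CCR2 ligand Ccl12, the CCR6 ligand Ccl20, the CCR4 ligand Ccl22, the lung chemokine Cxcl15, and the receptors Ccr1, Ccr8 and Ccr10. By the scanner's weaker flag, for positive and significant signal, 5 of these 8 were seen on at least 1 array. Some receptors were thus detected while a known ligand was not, as for Ccr6 and Ccl20. The reverse also held, as for Ccl6 and Ccl9, which act on CCR1 in the mouse. Ccl20 and Ccr1 had 1 probe each, and a single undetected probe does not show that the RNA is absent.

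**Figure D1:**
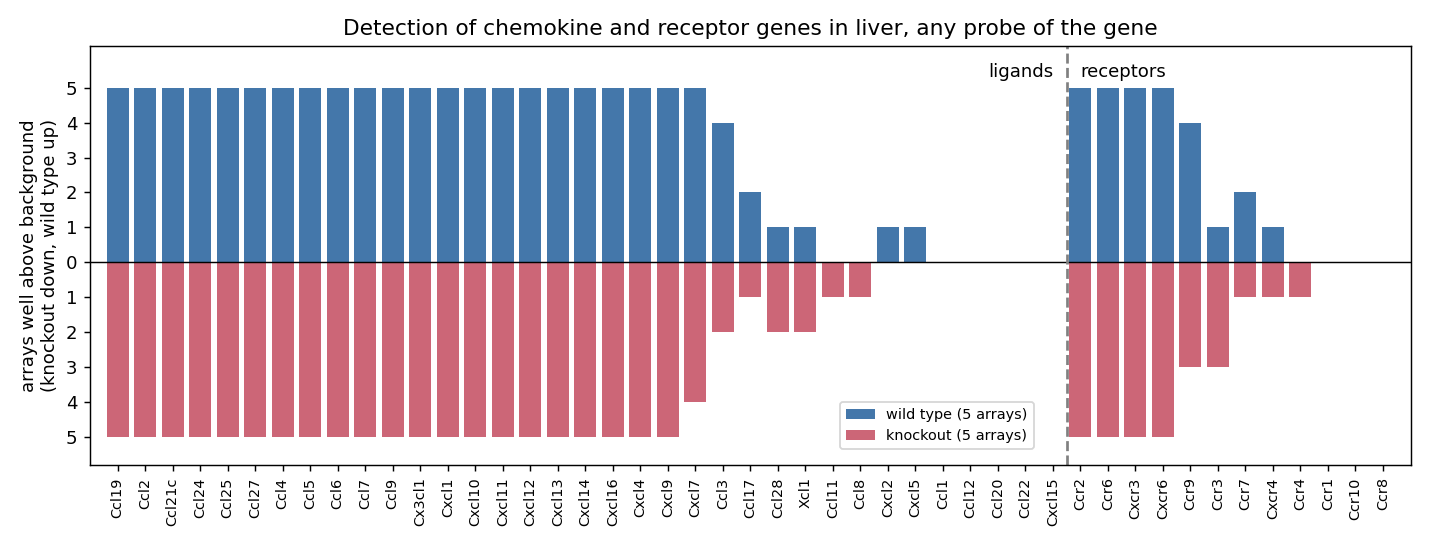
Number of arrays on which any probe of a gene was well above background, for the ligands (left of the dashed line) and the receptors shown (right), with wild-type arrays counted upward and knockout arrays downward (5 each). Full bars on both sides mark genes detected on all 10 arrays, and the 8 genes with no bar were detected on none.

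The 14 genes detected on some arrays spread over both genotypes. Cxcl7 was detected on 5 wild-type and 4 knockout arrays, Ccl3 on 4 and 2, and the receptor of thymocytes and gut-homing T cells Ccr9 on 4 and 3. Ccl17, a CCR4 ligand, and Ccr7, the lymph-node homing receptor, were each detected on 2 and 1, Ccl28 and Xcl1 on 1 and 2, the eosinophil receptor Ccr3 on 1 and 3, and Cxcr4 on 1 and 1. The neutrophil attractants Cxcl2 and Cxcl5 were each detected on 1 wild-type array, and Ccl8, the eotaxin Ccl11 and Ccr4 each on 1 knockout array. No member was detected on every array of one genotype and on none of the other.

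Probes of one gene did not always detect it together. Besides Ccr2, Cx3cl1 had a probe detected on all 10 arrays and another on none. For Ccl7 a probe was detected on 10 arrays and another on 2, WT 1 and KO 1. The genes Ccl19, Ccl24, Ccl5, Cxcl12 and Cxcl16 had a pair of probes each, both detected on all 10 arrays.

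Of the 48 genes, 29 were tested because a probe was well above background on 4 or all 5 arrays of either genotype, 23 ligands and 6 receptors. Values are log2 signals relative to the 75th percentile of the array, and differences are knockout minus wild type ± SE from limma, with p adjusted over all 15809 genes tested. Cxcl7 was called lower in knockout, and no member was called higher. Only slide 2 held both genotypes, so genotype and slide cannot be fully told apart in these differences. Calls at an adjusted p under 0.05 made up 5.91% of all genes tested, 2.44% higher and 3.48% lower, so 1 call among 29 members stands near that background. The unadjusted p was under 0.05 for 7 members, 3 higher and 4 lower, against 23.7% of all genes. Non-overlapping groups were seen in 0 of the 29, against 9.61% of all genes. Differences were positive for 16 members (51.9% of all genes) and negative for 13, with a median of 0.12 beside 0.01 for all genes, and the median SE of a member was 0.30 against 0.12 for all genes.

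**Figure D2:**
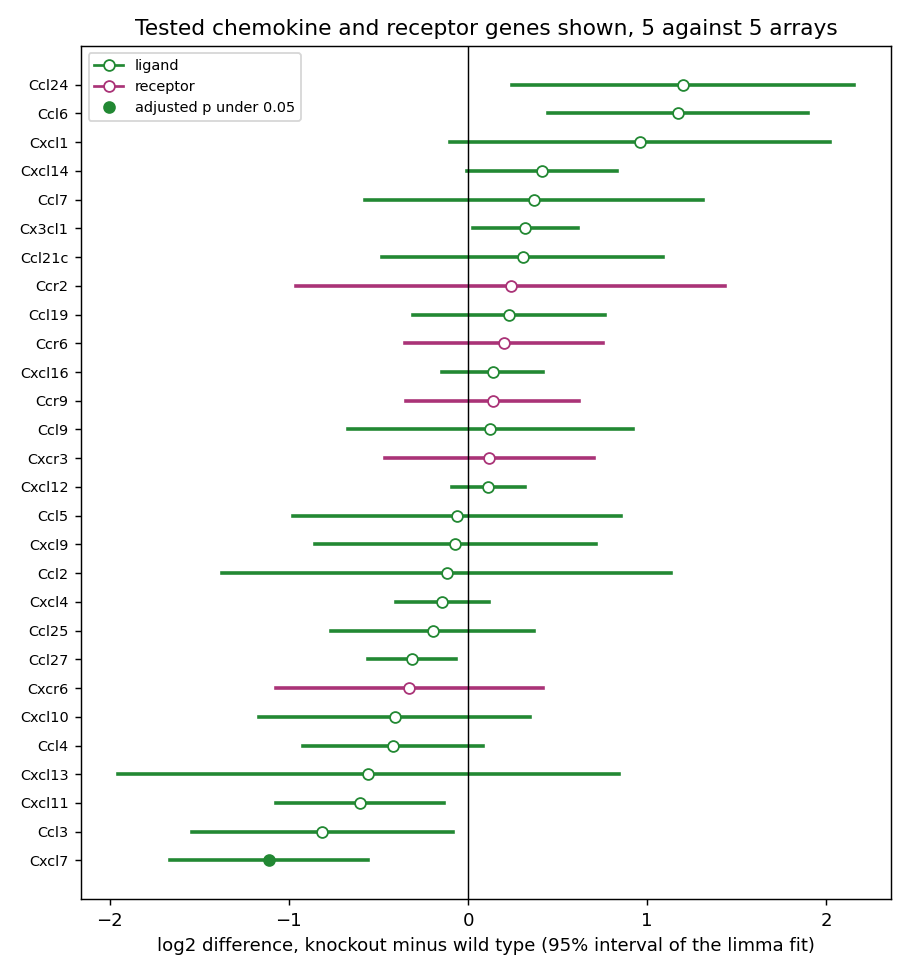
Knockout minus wild-type difference (x axis, log2) of the tested genes shown with its 95% interval from limma, 5 against 5 arrays. Green marks ligands, purple receptors, and the one filled point, Cxcl7 at -1.11, is the gene with an adjusted p under 0.05.

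Cxcl7, pro-platelet basic protein, is stored in platelet granules and its processed form attracts neutrophils through CXCR2. Its log2 signal was -2.15, -3.13, -2.95, -2.14 and -2.49 on WT1 to WT5 and -3.93, -3.10, -3.90, -4.05 and -3.44 on KO1 to KO5. On 4 knockout arrays it lay below every wild-type array, and KO2 lay inside the wild-type range. The difference was -1.11 ± 0.25 (95% interval -1.66 to -0.56), 2.16-fold lower in knockout, with an adjusted p of 0.031 and an exact two-sided permutation p of 0.016. On slide 2 alone the 3 knockout arrays averaged 1.15 below WT5 on the log2 scale (a difference of -1.15), which has no spread on the wild-type side. Of 24 alternatives that tested Cxcl7, 10 lost the call: no filter on dim probes (adjusted p = 0.087), slide as a fixed block (0.512), slide 2 only (0.999), the replicate block (0.130), and leaving out WT1, WT4, WT5, KO3, KO4 or KO5 in turn (0.071, 0.075, 0.068, 0.060, 0.066 and 0.053).

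Cxcl4, platelet factor 4, lies beside Cxcl7 on chromosome 5 and is stored in the same granules. It read -0.47, -0.97, -0.82, -0.997 and -0.63 in wild type and -0.87, -1.01, -0.75, -0.85 and -1.11 in knockout, with groups that overlapped and a difference of -0.14 ± 0.12 (adjusted p = 0.499). Other platelet genes were listed after these values had been seen. Of 8 such genes 5 were tested, and Itgb3, an integrin chain also made by other cells, rose by 0.56 ± 0.09 (adjusted p = 0.0087). Gp9, a platelet-restricted glycoprotein well above background on 5 wild-type but only 2 knockout arrays, differed by -0.83 ± 0.26 (adjusted p = 0.093). Treml1 differed by -0.53 ± 0.18 (adjusted p = 0.113), Itga2b by -0.17 and Gp1bb by 0.18. The summed level of the 5, in multiples of the 75th percentile, ran from 1.19 to 1.42 in wild type and from 1.40 to 1.85 in knockout, most of it Itgb3. Without Itgb3 the other 4 genes summed to 0.283 to 0.476 in wild type (median 0.327) and 0.226 to 0.417 in knockout (median 0.271), and the part of platelets in the Cxcl7 result was not tested.

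Among the other CXCR2 ligands only Cxcl1 was tested. Its values were -0.10, -0.16, 0.16, 0.57 and -0.48 in wild type and -0.39, 2.56, 0.32, 0.83 and 1.47 in knockout, where KO2, KO5 and KO4 lay above every wild-type array. The difference was 0.96 ± 0.48 with an adjusted p of 0.254, and 0.56 without KO2 (adjusted p = 0.377).

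Ccl6, a mouse chemokine of macrophages and other myeloid cells, had the smallest p among members with a positive difference. It read 0.77, -0.01, 0.33, 0.65 and -0.20 in wild type and 0.73, 2.53, 1.62, 0.99 and 1.51 in knockout. On 4 knockout arrays it lay above all wild-type arrays, and KO1 lay just under WT1. The difference of 1.17 ± 0.33 missed the threshold at an adjusted p of 0.066, with an exact permutation p of 0.016, and on slide 2 it was 1.82. It passed with slide as a random block (1.12, adjusted p = 0.041), with array quality weights (1.09, adjusted p = 0.038) and without KO1 (1.36, adjusted p = 0.037).

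Ccl9, the neighbour of Ccl6 on chromosome 11 (probes at chr11:83644626-83644685 and chr11:83658400-83658459), also acts on CCR1. Its values were 3.35, 2.67, 2.49, 2.65 and 3.45 in wild type and 2.57, 4.34, 2.80, 3.11 and 2.42 in knockout. Only KO2 lay above the wild-type range, and the difference was 0.13 ± 0.36 (adjusted p = 0.865).

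Ccl24, eotaxin-2, attracts eosinophils through CCR3. It read -0.31, -1.19, -0.58, -1.41 and -0.70 in wild type and -0.42, 1.92, 0.67, -0.27 and -0.10 in knockout, with 4 knockout arrays above all wild-type arrays and KO1 inside their range. The difference was 1.20 ± 0.43 (adjusted p = 0.133) and a second probe gave 1.22. Without KO2 it was 0.81, with an adjusted p of 0.123.

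**Figure D3:**
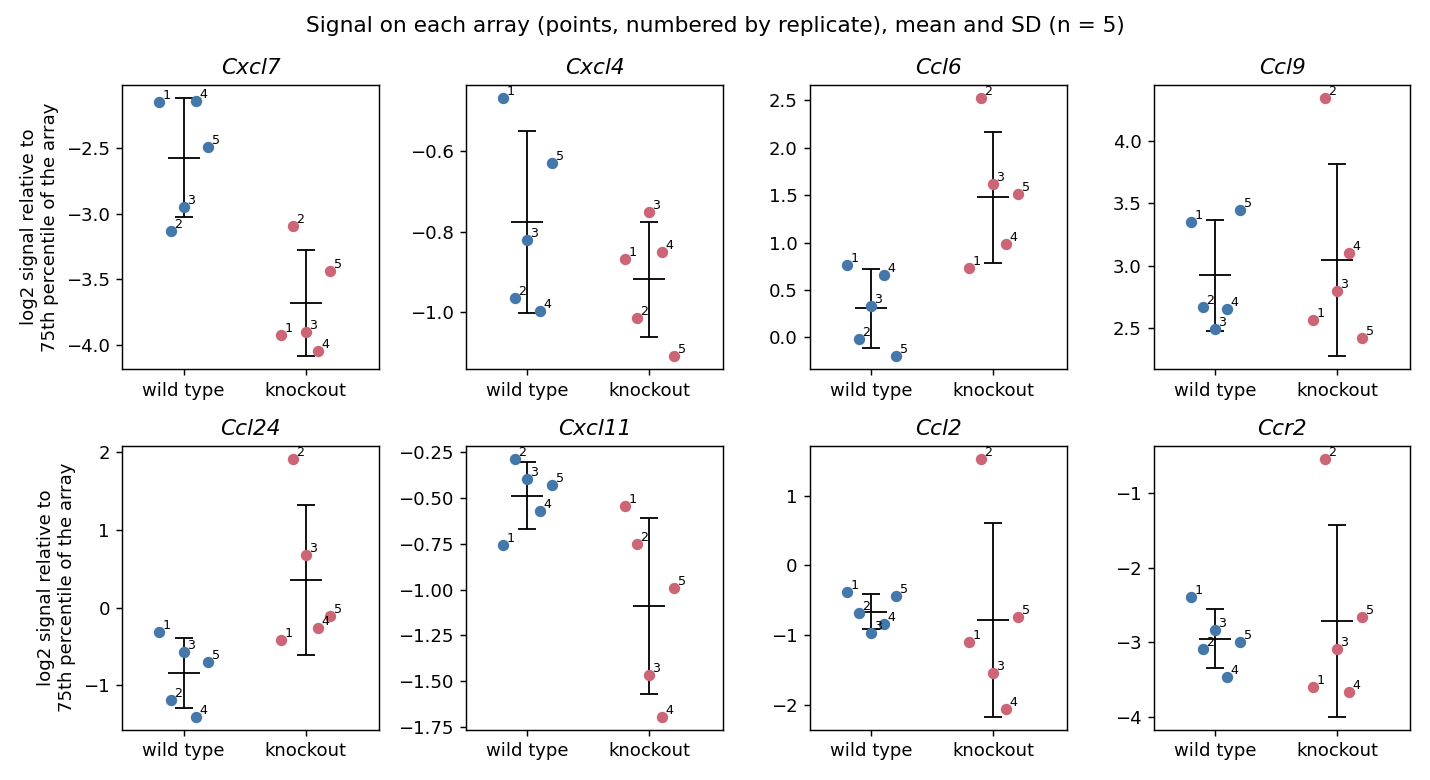
Log2 signal relative to the 75th percentile of the array for 8 genes on each array (points numbered by replicate), with group mean and SD (bars, n = 5). Scales differ between panels. Cxcl7 separates all knockout arrays but KO2 from wild type, Ccl6 all but KO1, and KO2 is the highest array for Ccl6, Ccl9, Ccl24, Ccl2 and Ccr2.

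The tested CCR2 ligands Ccl2 and Ccl7, and Ccr2 itself, had their highest value on KO2. Ccl2, the main attractant of inflammatory monocytes, was averaged over 10 spots per array. It read -0.38, -0.68, -0.96, -0.84 and -0.44 in wild type and -1.10, 1.53, -1.54, -2.06 and -0.74 in knockout. KO2 was the highest of all 10 arrays, while KO1, KO3 and KO4 were the lowest. The difference was -0.12 ± 0.56 (95% interval -1.37 to 1.13, adjusted p = 0.921), so the interval holds more than a doubling and more than a halving. Without KO2 the difference was -0.70.

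The receptor Ccr2 read -2.39, -3.09, -2.83, -3.47 and -2.99 in wild type and -3.61, -0.53, -3.10, -3.67 and -2.67 in knockout, with KO2 above and KO1 and KO4 below the wild-type range. The difference was 0.24 ± 0.54 (adjusted p = 0.826), and -0.31 without KO2. Ccl7 differed by 0.37 ± 0.42 (adjusted p = 0.639), with values from -3.54 to -2.92 in wild type and from -4.44 on KO1 to -1.68 on KO2.

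The inflammatory CC ligands Ccl3, Ccl4 and Ccl5 gave negative differences and overlapping groups, and none passed the test. Ccl3 entered the test through wild type alone, since only 2 knockout arrays were well above background. It read -4.33, -3.54, -3.82, -3.18 and -4.97 in wild type and -4.56, -4.59, -4.97, -5.40 and -4.39 in knockout. The difference was -0.81 ± 0.33 (adjusted p = 0.171), against knockout signal mostly not well above background, and on slide 2 it had the opposite sign, 0.27. Ccl4 differed by -0.42 ± 0.23 (adjusted p = 0.293). Ccl5, made by T and NK cells, read -0.08, -0.87, -0.40, -1.02 and 0.40 in wild type and -1.30, 0.69, -0.54, -1.20 and 0.07 in knockout, a difference of -0.06 ± 0.41 (adjusted p = 0.946).

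The interferon-induced ligands of CXCR3 had negative differences, none of which passed the test. Cxcl11 read -0.76, -0.29, -0.40, -0.57 and -0.43 in wild type and -0.55, -0.75, -1.47, -1.69 and -0.99 in knockout. KO3, KO4 and KO5 lay below every wild-type array, and KO1 and KO2 within their range. The difference was -0.60 ± 0.21, with an adjusted p of 0.125 and an exact permutation p of 0.040.

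Cxcl10 read 0.19, -0.29, -0.28, -0.50 and 0.03 in wild type and -1.25, 0.52, -0.81, -1.32 and -0.05 in knockout, a difference of -0.41 ± 0.34 (adjusted p = 0.502). KO1, KO3 and KO4 lay below and KO2 above the wild-type arrays. Cxcl9 read 0.45, -0.03, 0.13, -0.24 and 0.86 in wild type and -0.84, 0.32, 0.62, -0.36 and 1.07 in knockout, a difference of -0.07 ± 0.35 (adjusted p = 0.926). Their receptor Cxcr3, carried by activated T cells, read -2.80, -3.01, -2.81, -2.41 and -2.22 in wild type and -3.31, -1.87, -2.46, -2.83 and -2.19 in knockout. Its groups overlapped, with a difference of 0.12 ± 0.26 (adjusted p = 0.823).

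Cxcl12, the constitutive ligand of CXCR4 that retains leukocytes and progenitors, varied little. It read 5.09, 5.23, 5.31, 5.25 and 5.33 in wild type and 5.35, 5.08, 5.50, 5.48 and 5.37 in knockout. The difference was 0.11 ± 0.09 (95% interval -0.09 to 0.32, adjusted p = 0.490), and a second probe, which the files assign to another transcript variant, gave 0.31 ± 0.12 (adjusted p = 0.157 over probes). Cxcr4 was not well above background on 8 of the 10 arrays and was not tested.

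Cx3cl1, fractalkine, is tethered to endothelium and epithelium and binds CX3CR1. It read -1.81, -1.72, -1.64, -2.08 and -1.74 in wild type and -1.86, -1.31, -1.23, -1.38 and -1.62 in knockout. On 4 knockout arrays it lay above every wild-type array, and the difference was 0.32 ± 0.13 (adjusted p = 0.179). Cxcl16, the membrane-bound ligand of CXCR6, read -0.62, -0.43, -0.58, -0.16 and -0.56 in wild type and -0.53, -0.28, 0.01, -0.33 and -0.53 in knockout, a difference of 0.14 ± 0.13 (adjusted p = 0.545). Cxcr6, the receptor of liver-resident T and NKT cells, read -2.62, -2.31, -2.20, -1.32 and -1.70 in wild type and -3.39, -2.29, -1.89, -2.49 and -1.73 in knockout, a difference of -0.33 ± 0.34 (adjusted p = 0.594). The groups overlapped for all of these genes.

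The summed level of 7 sinusoidal endothelium markers, set beside Cx3cl1, ran from 18.6 to 26.3 in wild type and from 28.1 to 45.0 in knockout. Of the 7 differences 6 were positive and 0 were called. Clec4g, the brightest of the 7, weighs most in the sum and differed by 0.58 ± 0.18, while Lyve1 went the other way at -0.51 ± 0.35. The 8 Kupffer cell and macrophage genes summed to 35.2 to 86.4 in wild type and 35.2 to 94.0 in knockout, with 5 of 8 positive and 0 called. The part of either cell type in the chemokine values was not tested.

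Ligands that organise lymphoid tissue gave overlapping groups. Ccl19 read 0.39, 0.04, 0.30, -0.14 and 0.51 in wild type and -0.24, 1.21, 0.34, 0.30 and 0.64 in knockout, a difference of 0.23 ± 0.24 (adjusted p = 0.607). Ccl21c read -2.46, -3.03, -2.08, -3.44 and -3.05 in wild type and -3.61, -2.28, -2.48, -1.71 and -2.46 in knockout, a difference of 0.31 ± 0.35 (adjusted p = 0.639). Mouse Ccl19, Ccl21 and Ccl27 have near-identical gene copies that a probe may not tell apart, so the source of these signals is uncertain.

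Cxcl13 had the widest wild-type spread of the members. It read -2.10, -0.77, -3.36, -0.21 and -1.92 in wild type and -2.48, -0.95, -2.04, -3.65 and -2.02 in knockout. The difference of -0.56 ± 0.63 (adjusted p = 0.633) was smaller than the SD of 1.23 among wild-type arrays.

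Ccl27, whose current symbol is Ccl27a and which attracts skin-homing T cells through CCR10, was the tightest member in wild type. It read 0.63, 0.76, 0.63, 0.69 and 0.66 there and 0.29, 0.05, 0.69, 0.48 and 0.30 in knockout. All knockout arrays but KO3 lay below the wild-type range. The difference was -0.31 ± 0.11 with an adjusted p of 0.126, and -0.39 without KO3 (adjusted p = 0.044). Of 25 alternatives Ccl27 was called in 1 only, the one without KO3.

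Other tested members were Cxcl14 at 0.41, the gut and thymus chemokine Ccl25 at -0.20, and the receptors Ccr6 at 0.20 and Ccr9 at 0.14, with adjusted p of 0.217, 0.681, 0.663 and 0.742. Of the genes with more than 1 tested probe (Ccl19, Ccl24, Ccl25, Ccl5, Cxcl12 and Cxcl16), none had probes of opposite sign.

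Knockout arrays differed among themselves. KO2 was the highest of the 10 arrays for 12 of the 29 members (41.4%), against 17.4% of all genes tested. These 12 were Ccl2, Ccl5, Ccl6, Ccl7, Ccl9, Ccl19, Ccl24, Cxcl1, Cxcl10, Ccr2, Ccr9 and Cxcr3. KO4 was the lowest for 9 members (31.0%, against 10.2% of all genes) and KO1 for 7 (24.1%, against 9.99%). The median deviation of the members from their wild-type means was 0.67 on KO2 and -0.40 on KO1, and lay between -0.19 and 0.20 on the other 3 knockout arrays and between -0.13 and 0.14 on the wild-type arrays. Without KO2 the median difference over members was -0.11 in place of 0.12, and the count of called members stayed at 0 higher and 1 lower.

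Leukocyte markers were high on KO2 for part of their lists. They were highest there for 2 of 3 NK cell genes, 1 of 5 T cell genes, 1 of 2 neutrophil genes and 1 of 3 dendritic cell genes, against 0 of 8 Kupffer cell and macrophage genes. Itgax, a dendritic cell and macrophage integrin, read -1.09 on KO2 and from -3.60 to -2.11 on the other arrays. Of the 5 tested hepatocyte genes 2, Cps1 and Ttr, were lowest on KO2, which was the lowest array for 25.6% of all genes tested. Alb, Apoa1 and Asgr1 read 8.60, 7.30 and 6.73 on KO2, inside the range of the other arrays. The part of these cells in the KO2 values was not tested.

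**Figure D4:**
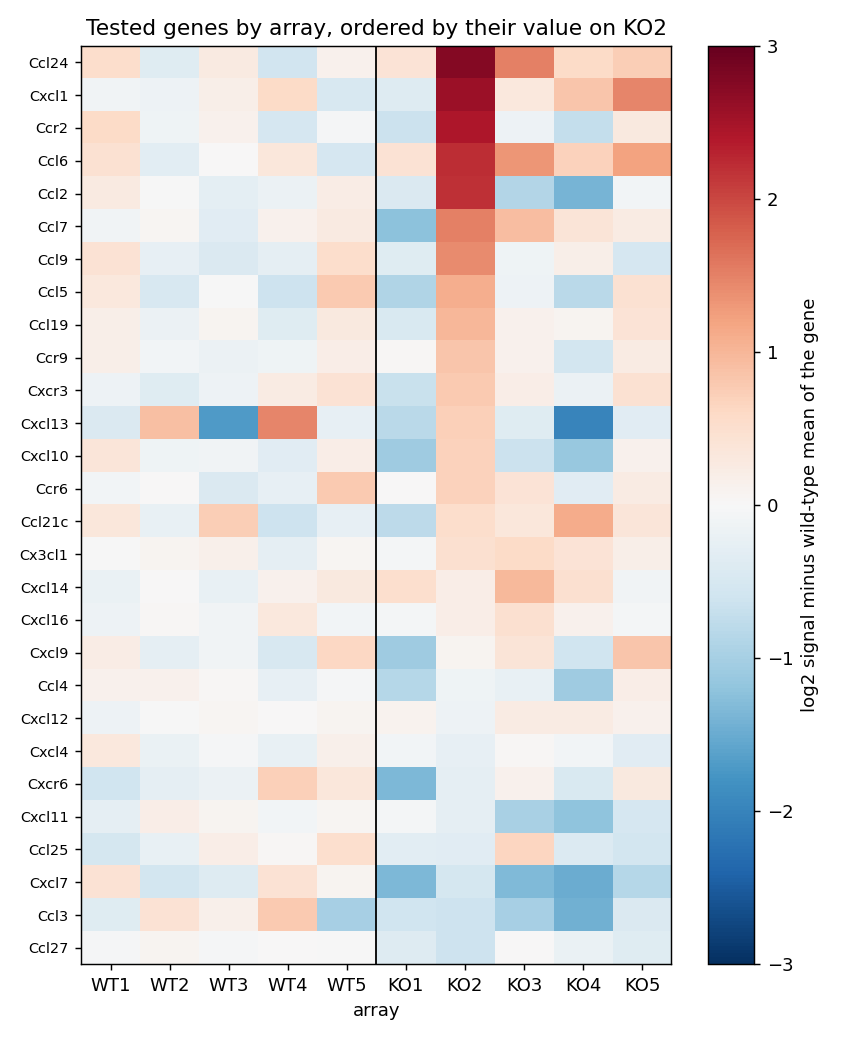
Deviation of each tested gene shown (rows, ordered by their value on KO2) from its wild-type mean on each array (columns; colour, log2 scale). KO2 is red in the upper rows, led by Ccl24, Cxcl1 and Ccr2. Of these, Ccr2 is below its wild-type mean on KO1 and KO4, and Ccl24 is above its mean on both. Cxcl1 is below its mean on KO1 and above it on KO4. Cxcl7 is blue on all 5 knockout arrays.

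The SD was larger among knockout than wild-type arrays for 24 of the 29 members (82.8%), against 78.5% of all genes, and for 22 (75.9%, against 67.7%) without KO2, a count added after the data had been seen. The median SD of a member was 0.39 in wild type and 0.56 in knockout. Since 4 wild-type arrays shared a slide while the knockout arrays lay on 3 slides, genotype and slide cannot be told apart as the source of this spread.

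Genes that act with the chemokines outside the naming rule were taken from a list. The list holds atypical receptors, signalling proteins, adhesion molecules, NF-kB subunits and inflammatory cytokines. Of 45 listed genes 38 were tested, 27 differences were positive (51.9% over all genes), the median was 0.14 (0.01 over all genes), and 1 gene rose and 0 fell, near the 2.44% and 3.48% of all genes. Il6, the acute-phase cytokine, rose 2.83-fold (log2 SE 0.37, adjusted p = 0.043). It read -4.89, -5.90, -5.87, -6.19 and -5.33 in wild type and -4.72, -2.98, -4.89, -4.03 and -4.05 in knockout, with 1 wild-type array and 4 knockout arrays well above background. Il6 therefore entered the test through the knockout group alone, and the fold is set against wild-type signal that was mostly not well above background. Its knockout arrays all lay above the wild-type arrays, by a narrow margin between KO3 and WT1, and the call was lost with normexp and quantile normalisation (0.49, adjusted p = 0.078), with slide as a fixed block (1.14, adjusted p = 0.682) and without WT2 (1.44, adjusted p = 0.108). Over 24 alternatives Il6 was called in 11.

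The next smallest p values belonged to Csf1, the macrophage growth factor, at 0.46 ± 0.14 (adjusted p = 0.086), the receptor-desensitising arrestin Arrb2 at 0.34 ± 0.12 (adjusted p = 0.127) and the atypical chemokine receptor Ackr1 at 0.73 ± 0.33 (adjusted p = 0.212). The genes not tested were Cx3cr1, Mmp9, Pik3cg, Sele, Itgam, Tnf and Ifng.

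Several chemokine system genes fell outside the naming rule, most of them through an older name on this array. Cxcr1 (Il8ra), Cxcl3 (Gm1960) and Cxcl17 (BC024561) were well above background on 0 arrays. The 2 probes of the neutrophil receptor Cxcr2 (Il8rb) were detected on 0 wild-type and 1 knockout array and on 1 and 3. Cxcr5 (Blr1), the receptor of Cxcl13 on B cells, was detected on 4 wild-type and 2 knockout arrays and differed by -0.23 ± 0.28 (adjusted p = 0.648). Cx3cr1 carries its current name, which the rule does not cover. Its 2 probes were detected on 0 wild-type and 1 knockout array and on 3 and 2.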

How the data were processed

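The authors read spot intensity with Agilent's Feature Extraction program, release 9.5.1.1 by the headers of the files and 9.5 per the submitters' processing notes. Intensity values as deposited are background-subtracted on a linear scale and not normalised between arrays, per the file headers, and the deposited series table held the same values (largest difference 0). The scanner's flags for signal above background were used as deposited. Here log2 intensity minus the array's 75th percentile of non-control probes was taken, with outlier spots missing, replicate spots averaged and no pseudocount. Probes flagged well above background on 4 or all 5 arrays of either genotype were kept (23266), 1 per gene, the brightest. Differences were tested with limma 3.58.1 in R 4.3.3, two-sided, with Benjamini-Hochberg adjustment over 15809 genes and a threshold of 0.05, and with exact permutation of 5 against 5 arrays, whose smallest possible p is 0.0079. The limma step was tested on simulated data. Array values give no counts, so the number of arrays limits the precision. Members, gene lists and tests were chosen with earlier results of these data known, and the platelet list after their values were seen. Members with the 3 smallest p in each direction, those called, and well-known ligand and receptor pairs are given on every array. Alternatives covered background correction, scaling, filters, outlier spots, probe choice, slide, array weights, replicate block and leaving out each array. Some results are not reported here.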

Additional observations from a re-analysis of the deposited data

Results flagged for a closer look

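Among the 58 sets of 5 arrays (29 genes in each genotype), 1 held an array far from the others. Ccl25, which attracts thymocytes and gut-homing T cells, read 2.15 on KO3 and from 0.95 to 1.18 on the other 4 knockout arrays. The gap was 0.804 of the range of the group, above the critical value of 0.71 for 5 samples. Chance marks about 1 set in 20, so 1 in 58 is no more than chance gives.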

How the results depend on the processing

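Cxcl7 had a negative difference under each of the 24 alternatives that tested it, from -1.26 to -0.71, with adjusted p from 0.016 to 0.999, and was called in 14. The count of members called lower was 0 with no filter on dim probes, with probes above background on all 10 arrays (where Cxcl7 was not tested), with slide as a fixed block and on slide 2 only. The count called higher was 1, Ccl6, with slide as a random block and with array quality weights. Leaving out 1 array at a time gave counts of 0 to 1 lower and 0 to 1 higher. Without KO3 the member called lower was Ccl27 and not Cxcl7. The replicate block gave 0 lower. Whether the replicate numbers pair the samples is not known. Same-numbered arrays had correlations of deviations from -0.21 to 0.04, which cannot decide it because such arrays never shared a slide.

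The median over members ran from -0.11 without KO2 to 0.23 with no scaling, where the median of all genes moved to 0.12, and was -0.02 with slide as a fixed block. With array medians in place of the 75th percentile it was 0.02 and that of all genes -0.09. Over all genes 935 were called (41.2% higher), 470 with no scaling (66.8% higher), 711 with array medians (21.5% higher), 247 with no filter, 166 with the replicate block, 38 with slide as a fixed block, 2 on slide 2 only, 1451 with slide as a random block and 297 to 1191 without 1 array. Of 23 genes followed through the alternatives, 14 kept 1 sign, and Ccl19, Ccl2, Ccl3, Ccl5, Ccr2, Cxcl12, Cxcl13, Cxcl9 and Cxcr3, none called, changed sign in at least 1. The causes were not tested. With the scanner's weaker flag for positive signal, 35 members in wild type and 36 in knockout were detected on at least 4 arrays, in place of 29 and 27.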
